A study of Mus musculus with 4 samples.

Results

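Mark-poor deserts are megabase stretches of the mouse autosomes in which ChIP-seq of fibroblasts returned few reads for both H3K4me3 and H3K27me3. Each autosome was divided into windows of 1 Mb, and a window was kept when at least 150 of its 200 bins of 5 kb held a read with 1 genome location in any of the 4 libraries, which left 2336 windows. The members were chosen by measured values: a window was a desert when its mean level was under 0.5-fold for H3K4me3 and under 0.5-fold for H3K27me3 in mouse embryonic fibroblasts (MEF). The fold is the read count of a bin divided by the library's mean over the 494868 bins with a read. By this rule 592 windows (25.3%) were deserts, and they held 115325 of those bins.

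The libraries were 1 of H3K9me3 in secondary MEF and 1 each of H3K9me3, H3K4me3 and H3K27me3 in MEF. Secondary MEF are fibroblasts of chimeric embryos collected at 13.5 dpc. The embryos arose from BDF2 blastocysts injected with induced pluripotent stem (iPS) cells that carry inducible Oct4, Klf4 and Sox2 and a selectable cassette at Oct4, and 48 hours in puromycin at 2 µg/ml was used to keep the cells of the iPS line. The labels name no doxycycline treatment, and a chimeric embryo also holds host cells, whose share after puromycin was not given in the sources used here. MEF were grown in DMEM with FBS at 10%, the same share as the cosmic calf serum of the secondary MEF, and their strain and age were not given in the sources used here. Both H3K9me3 libraries were made with the same lot of antibody. With 1 library in each group, no difference below has a replicate check. All comparisons are between libraries and not between conditions, and intervals, given at the 95% level unless stated, cover counting error only.

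Histone H3 trimethylated at lysine 4 sits at active and poised promoters. Trimethylation of lysine 27 is the work of Polycomb repressive complex 2, which silences developmental genes. Trimethylation of lysine 9 marks heterochromatin, where it is bound by HP1 proteins and covers satellite repeats and silenced transposons. Gene-poor stretches of mammalian chromosomes are in general late replicating and often lie at the nuclear lamina. Gene annotation and genome sequence on build mm8, the build of these files, were not used here, so every position below is given in mm8 without gene names, and gene content and base composition of the deserts were not analysed here.

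The 4 libraries held between 7985901 and 12244567 reads with 1 location on chromosomes 1 to 19, X and Y, or a mean of 16.1 to 24.7 reads per bin. A desert window held a median of 1464 reads of H3K9me3 in secondary MEF, 1378 of H3K9me3 in MEF, 1133 of H3K27me3 and 788 of H3K4me3. No input library was used. The median desert window had 196 bins with a read and the median of the 1501 richer windows had 199, but 1 read in any library is enough for a bin to count, so this number says little of how much of a bin can be aligned to. Reads with 2 locations, listed apart by the authors, were also fewer in deserts, at 0.826-fold of their own mean in secondary MEF H3K9me3, 0.715-fold in MEF H3K9me3, 0.567-fold in H3K27me3 and 0.516-fold in H3K4me3. Set against reads with 1 location they were more frequent in deserts than in richer windows. For each 100 reads with 1 location there were 11.3 with 2 in deserts and 5.33 in richer windows in secondary MEF H3K9me3, 11.4 and 5.25 in MEF H3K9me3, 9.90 and 4.42 in H3K27me3, and 11.6 and 3.65 in H3K4me3. The part of mappability and base composition in the low read counts was not tested.

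The values that chose the deserts lay well under the limit for most windows. H3K4me3 had a median of 0.162-fold (lowest 0.0323-fold, highest 0.490-fold) and H3K27me3 a median of 0.294-fold (0.0443-fold to 0.499-fold). H3K27me3 was the tighter condition, since 649 windows were under 0.5-fold for it and 798 for H3K4me3. A further 206 windows were low only in H3K4me3 and 57 only in H3K27me3. The poorest member was chromosome 6 from 130000001 to 131000000, with 136 reads of H3K4me3 (0.0323-fold) and 149 of H3K27me3 (0.0443-fold) over 170 bins. The next were chromosome 17 from 18000001 to 19000000 (0.0542-fold H3K4me3, 0.0726-fold H3K27me3) and chromosome 3 between 91000001 and 92000000 (0.0538-fold H3K4me3, 0.0732-fold H3K27me3). None of these 3 windows held a called bin of any library.

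At the limit, deserts ran on into other windows without a gap. Just inside lay chromosome 2 from 64000001 (H3K27me3 0.4992-fold), chromosome 5 from 41000001 (0.4986-fold) and chromosome 12 from 50000001 (0.4986-fold). Just outside lay chromosome 4 from 71000001 (H3K4me3 0.5002-fold), chromosome 6 from 129000001 (H3K4me3 0.5015-fold) and chromosome 3 from 119000001 (H3K27me3 0.5018-fold). These windows were named for lying closest to the limit, so their likeness cannot show whether deserts form a separate class. Limits of 0.4 and 0.6 gave 460 and 709 deserts, so windows lay on both sides of the limit used. Whether deserts form a separate class was not tested. For comparison, the 243 windows whose larger fold lay between 0.5 and 0.7 are called the next poorest, and the remaining 1501 the richer windows.

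**Figure D1:**
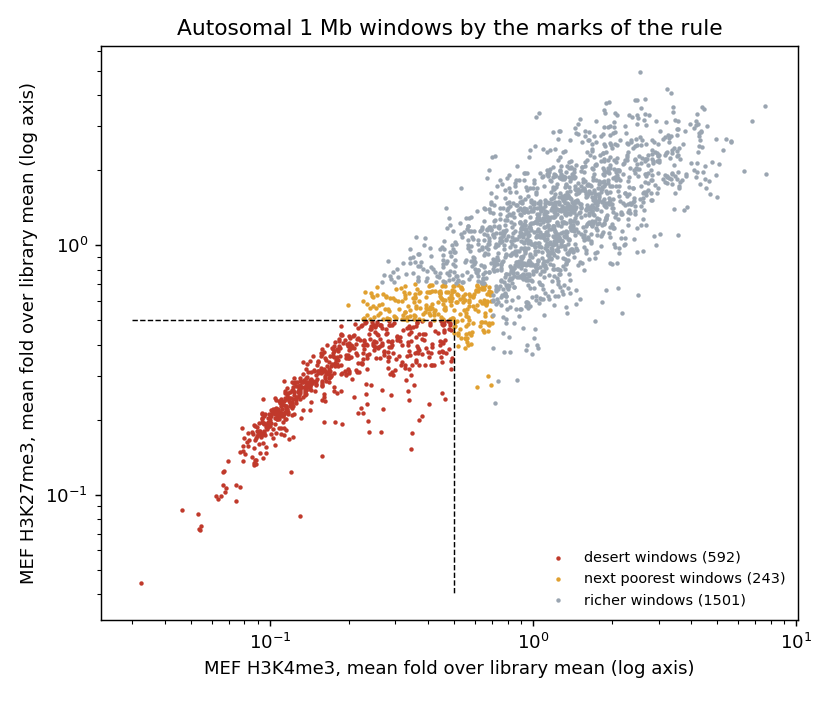
Mean fold over the library mean of MEF H3K4me3 (x, log axis) against MEF H3K27me3 (y, log axis) for 2336 autosomal windows of 1 Mb, 1 point each, with the 0.5-fold limits dashed. The 592 deserts (red) run without a gap into the 243 next poorest (yellow) and 1501 richer windows (grey).

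Deserts were also poor in H3K9me3, which the rule did not use. Pooled over their bins, H3K9me3 stood at 0.492-fold in secondary MEF (95% interval 0.491 to 0.493) and 0.414-fold in MEF (0.413 to 0.415). The next poorest windows had 0.710-fold (secondary MEF) and 0.698-fold (MEF), and the richer windows 1.32-fold and 1.35-fold. Of the 592 deserts, 586 lay under the library mean in secondary MEF and 591 in MEF. Reads with 1 location and no input library cannot show how much H3K9me3 lay on repeats of the deserts. In each H3K9me3 library, 588 deserts (99.3%) had a higher fold of H3K9me3 than of H3K27me3. Among richer windows 47.3% (secondary MEF) and 56.1% (MEF) did. The rule chose deserts for low H3K27me3, so this is a description.

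The level differed from desert to desert. In secondary MEF a desert had between 0.176-fold and 1.47-fold H3K9me3 with a median of 0.463-fold, and in MEF between 0.107-fold and 1.06-fold with a median of 0.393-fold. The mean ± SD over windows was 0.491 ± 0.135 in secondary MEF and 0.413 ± 0.114 in MEF. Richer windows averaged 1.32 ± 0.433 and 1.34 ± 0.412, and their ranges overlapped those of the deserts. Deserts low in H3K27me3 were also low in H3K9me3 of the same cells: across the 592 windows Spearman's rho was 0.925 for H3K27me3 with MEF H3K9me3, 0.794 for H3K4me3 with MEF H3K9me3 and 0.824 for H3K4me3 with H3K27me3. With secondary MEF H3K9me3, rho was 0.782 for MEF H3K9me3, 0.673 for H3K27me3 and 0.494 for H3K4me3. These are descriptions over windows that share the same libraries, mappability and base composition, and the 3 MEF libraries also share a flow cell.

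**Figure D2:**
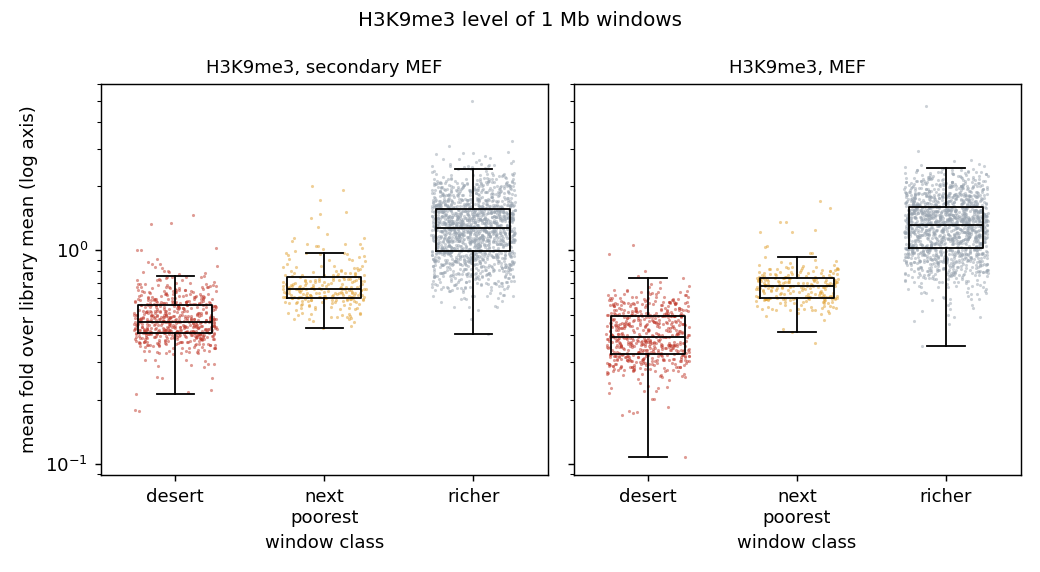
Mean fold of H3K9me3 over the library mean (y, log axis) in desert, next poorest and richer 1 Mb windows, for secondary MEF (left) and MEF (right), with 1 point per window and boxes for the quartiles and whiskers for the range without far points. Median deserts lie at 0.463-fold (secondary MEF) and 0.393-fold (MEF), with a few deserts near or above 1-fold.

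High peaks raise a library's mean, so levels were also taken outside them. A called bin had 2-fold the library mean or more and, in a one-sided Poisson test, a value under 0.001 after Benjamini-Hochberg adjustment. With bins called in any library left out, deserts stood at 0.481-fold in secondary MEF H3K9me3 against 0.955-fold in richer windows, and at 0.404-fold against 0.977-fold in MEF H3K9me3. The same bins gave 0.287-fold against 0.833-fold for H3K27me3 and 0.151-fold against 0.478-fold for H3K4me3. Outside peaks, deserts thus had 0.504 times the level of richer windows in secondary MEF H3K9me3, 0.414 times in MEF H3K9me3, 0.344 times in H3K27me3 and 0.316 times in H3K4me3. All 4 libraries were lower in deserts. The rule chose on H3K4me3 and H3K27me3, and MEF H3K9me3 shares cells and flow cell with them, so nothing is read from the order of these values.

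Uncalled bins of deserts still varied more than counting error. The variance of their read counts divided by the mean had a median per window of 2.52 for secondary MEF H3K9me3, 2.59 for MEF H3K9me3, 2.51 for H3K27me3 and 2.37 for H3K4me3, where Poisson counting alone gives 1. This measure grows with reads per bin, so it is not compared with deeper windows. Desert bins without any read made up 2.65% in secondary MEF H3K9me3, 3.57% in MEF H3K9me3, 6.69% in H3K27me3 and 11.6% in H3K4me3.

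Relative to MEF, the secondary MEF library placed more of its H3K9me3 reads in deserts. They held 915119 reads in secondary MEF (11.5% of the library) and 859168 in MEF (9.64%), a ratio of read shares of 1.19 (95% interval 1.19 to 1.19). The ratio was 1.02 (1.01 to 1.02) in the next poorest windows and 0.982 (0.981 to 0.983) in richer ones. Chromosome 12, where the secondary MEF share was higher in every class of window, had 1.68 (1.66 to 1.70) in its deserts, 1.45 in its next poorest windows and 1.43 in its richer windows. Without it the ratio in deserts was 1.16 (1.16 to 1.16), against 0.999 and 0.962. The ratio in deserts was above that of both other classes with chromosome 12 and without it. The rule chose windows low in MEF libraries that share cells and flow cell with the MEF H3K9me3 library by which this ratio is divided, so the ratios and counts of deserts against other windows are a description and not independent of the rule. Secondary MEF and MEF H3K9me3 were sequenced on different flow cells, so cell source and flow cell cannot be told apart.

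Chromosome by chromosome, the deserts had a higher ratio than the other windows of the same chromosome on all 19 autosomes. Outside chromosome 12 the desert ratio was 1.16 ± 0.0723 (mean ± SD over 18 chromosomes) and that of the other windows 0.966 ± 0.0423. The quotient of both lay between 1.09 on chromosome 4 and 1.33 on chromosome 1, and it was 1.17 on chromosome 12. Chromosome 4 was the only autosome whose deserts had a ratio under 1, at 0.948 (0.937 to 0.960), with 0.871 in its other windows. Chromosomes share both libraries, so they are not independent samples.

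**Figure D3:**
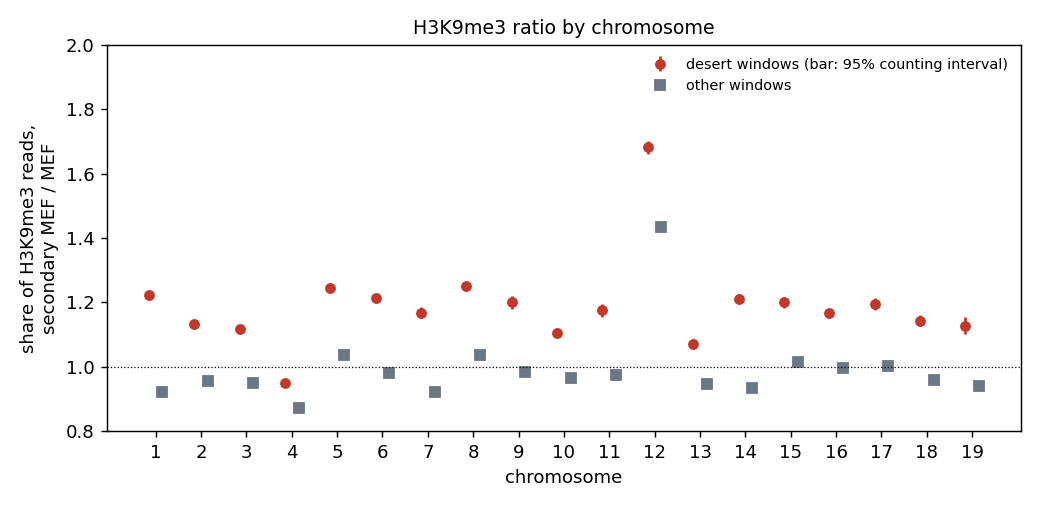
Share of H3K9me3 reads in secondary MEF divided by that in MEF (y) for the deserts (red, with 95% counting intervals) and the other windows (grey) of each autosome (x). On all 19 autosomes the deserts lie above the other windows, with chromosome 12 highest at 1.68 and chromosome 4 lowest at 0.948.

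Taken 1 window at a time, 371 deserts (62.7%) were higher in secondary MEF and 19 (3.21%) lower, with an interval at 0.1% error that excluded 1. Over all 2336 windows these shares were 29.8% higher and 26.5% lower. The median desert had a ratio of 1.197, with a range from 0.773 to 2.04. All 31 deserts of chromosome 12 were among the higher ones, and 340 of the other 561 deserts were too. Chromosome 4 held 15 of the 19 lower deserts, although 4 of its 42 deserts were higher.

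The deserts at the ends of this range came from those chromosomes. The highest were on chromosome 12, led by the window from 114000001 to 115000000, with 2101 reads in secondary MEF and 1152 in MEF (ratio 2.04, 0.1% error interval 1.80 to 2.30). Its neighbour from 115000001 had 1156 and 634 reads (2.03), and the window from 64000001 had 1722 and 956 (2.01). Outside chromosome 12 the highest ratio was on chromosome 8 from 62000001, with 1596 and 1060 reads (1.68). A single 5 kb bin with 125 secondary MEF reads at 17 distinct positions lay in that window. The 5 lowest were all on chromosome 4, led by the windows from 96000001, with 1468 and 2119 reads (0.773), and from 75000001, with 1506 and 2167 reads (0.776).

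Within the deserts the ratio was higher where MEF H3K27me3 was lower, which shares cells and flow cell with the ratio's divisor and is used here to order the windows. Ordered by H3K27me3 and cut into 4 sets of 148 windows, the deserts with the least (0.0443-fold to 0.215-fold) had 1.35 (1.35 to 1.36), and the following sets 1.25, 1.15 and 1.10. Without chromosome 12 these values were 1.33, 1.23, 1.10 and 1.07. H3K9me3 itself went the other way along these sets, at 0.402-fold, 0.449-fold, 0.506-fold and 0.608-fold in secondary MEF and 0.297-fold, 0.360-fold, 0.441-fold and 0.555-fold in MEF. Among deserts, the mean number of bins with a read moved with it, from 193 in the poorest set to 196 in the least poor, and its part in the ratio was not tested.

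A few deserts held broad H3K9me3 beside low levels of both other marks. Only 6 deserts reached the library mean in secondary MEF, 3 on chromosome 12, 2 on chromosome 5 and 1 on chromosome 8, and only 1 did so in MEF. That window, chromosome 5 from 126000001 to 127000000, had 4716 reads of H3K9me3 in secondary MEF (1.47-fold) and 3795 in MEF (1.06-fold), beside 0.284-fold H3K4me3 and 0.392-fold H3K27me3. The signal was wide and low: 78.9% of its 199 bins were at or over the mean in secondary MEF and 46.7% in MEF, while its highest bin reached 3.16-fold and 2.89-fold. No bin of H3K4me3 or H3K27me3 reached the mean. On its left, the window from 125000001 was rich in everything, at 2.57-fold H3K9me3 in secondary MEF, 2.16-fold in MEF, 2.97-fold H3K4me3 and 1.946-fold H3K27me3. On its right, H3K9me3 stayed at 1.72-fold (secondary MEF) and 1.22-fold (MEF) beside 0.474-fold H3K4me3 and 0.649-fold H3K27me3.

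**Figure D4:**
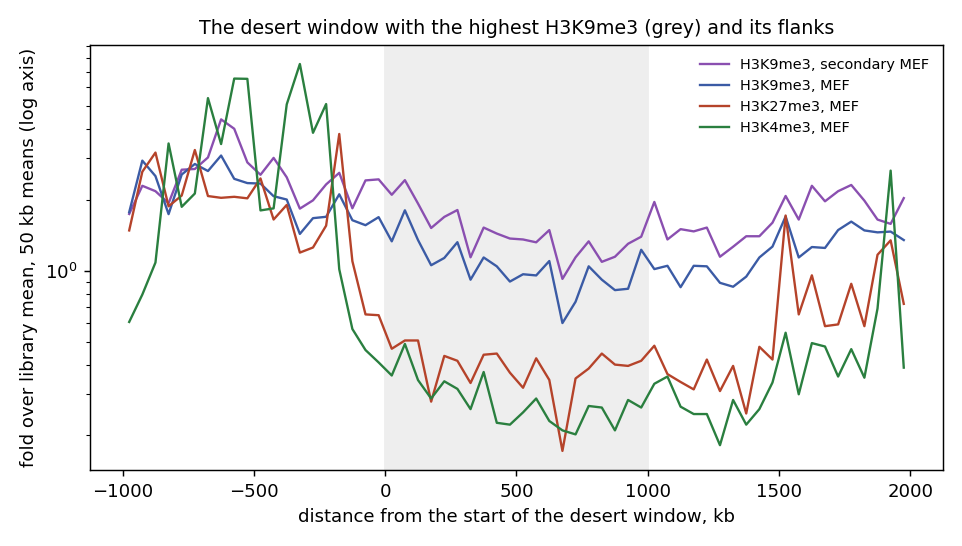
Fold over the library mean in 50 kb means (y, log axis) along the desert window of chromosome 5 with the highest H3K9me3 (grey) and 1 Mb on each side (x, distance from the window's start). Inside the window H3K9me3 averages 1.47-fold (secondary MEF) and 1.06-fold (MEF), while H3K27me3 and H3K4me3 average 0.392-fold and 0.284-fold.

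Another window of this kind was chromosome 5 from 27000001 to 28000000. It had 4332 reads of H3K9me3 in secondary MEF (1.35-fold) and 3432 in MEF (0.958-fold), beside 0.254-fold H3K4me3 and 0.481-fold H3K27me3. On chromosome 12 from 89000001 to 90000000, 4267 reads in secondary MEF (1.32-fold) stood beside 2569 in MEF (0.713-fold). The first of these windows was high in both libraries, while on chromosome 12 the MEF level lay within the upper range of the deserts. The chromosome 12 windows from 7000001 (1.03-fold in secondary MEF, 0.577-fold in MEF) and from 69000001 (1.007-fold and 0.540-fold) had the same order. In MEF, the windows next in rank after chromosome 5 were chromosome 8 from 115000001 (1.001-fold in secondary MEF, 0.798-fold in MEF), chromosome 3 from 33000001 (0.843-fold and 0.760-fold) and chromosome 13 from 11000001 (0.834-fold and 0.739-fold).

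At the other end, the poorest windows were poor in all 4 libraries. Chromosome 6 from 130000001 had the lowest H3K9me3 as well, with 483 reads in secondary MEF (0.176-fold) and 328 in MEF (0.107-fold). Chromosome 4 from 112000001 followed in secondary MEF, with 544 reads there (0.178-fold) and 743 in MEF (0.218-fold). Chromosome 6 from 69000001 (0.218-fold and 0.169-fold), chromosome 7 from 60000001 (0.212-fold and 0.176-fold) and chromosome 3 from 91000001 (0.255-fold and 0.172-fold) were among the lowest as well. These windows had between 170 and 189 bins with a read, fewer than the median desert.

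Peaks inside deserts were rare, and 269 deserts (45.4%) held no called bin of any library. H3K4me3 had 512 called bins, or 0.444% of desert bins, against 6.27% of all bins and 6.56% of the bins in the 2336 windows. H3K27me3 had 336 (0.291%, against 11.3% and 12%). The rule used both of these marks, so nothing is read from their counts. H3K9me3 had 345 called bins in secondary MEF (0.299%, against 9.32% and 9.95%) and 206 in MEF (0.179%, against 10.3% and 11%). Per library, 339 deserts had no H3K4me3 bin, 407 no H3K27me3 bin, 430 no secondary MEF H3K9me3 bin and 465 no MEF H3K9me3 bin. In the same order these were 57.3%, 68.8%, 72.6% and 78.5% of deserts. Windows without such a bin made up 9.05%, 21.8%, 28.4% and 28.8% of the next poorest and 0.733%, 1.53%, 1.40% and 1.27% of the richer windows. H3K4me3 bins, whose number the rule keeps low, reached at most 6 in a desert, and 3.52% of them lay in the 3 fullest windows. Secondary MEF H3K9me3 bins, which the rule does not limit in this way, were bunched. The 3 fullest windows, all named above, held 27, 26 and 21 bins, or 21.4% of the total, and 271 were left without them.

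The rule used H3K4me3, so the values of its peaks are a description. Called H3K4me3 bins of deserts had a median of 7.05-fold, near the 6.91-fold of the next poorest windows and above the 4.77-fold of richer windows. Of the desert bins, 314 reached 5-fold, 203 reached 10-fold and 59 reached 20-fold. The upper end was lower than in richer windows: 10% of the called bins lay over 21.1-fold in deserts and over 24.7-fold in richer windows. The highest had 43.0-fold and 143-fold. In the next poorest windows these values were 21.8-fold and 66.1-fold. In deserts these bins took 22.6% of the H3K4me3 reads, while called H3K27me3 bins took 3.89% of that mark's reads, and H3K9me3 bins 1.65% in secondary MEF and 1.21% in MEF. Of 427 H3K4me3 regions, 81.5% were a single bin wide, and the longest reached 20 kb on chromosome 3 from 5190001 to 5210000 (mean 8.66-fold, H3K27me3 1.34-fold). Where peaks followed each other within the same deserts, the median spacing was 205 kb, with pairs across a window that is no desert left out.

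The highest H3K4me3 bin of a desert was on chromosome 3 from 110375001 to 110380000, with 1065 reads at 833 distinct positions (43.0-fold, 40.5 to 45.7). There 83.8% of the reads fell in 1 kb, from 110378001 to 110379000, H3K27me3 had 31 reads (1.57-fold), and the window around it averaged 0.451-fold. Chromosome 2 from 53010001 to 53015000 reached 41.0-fold (1015 reads), chromosome 5 from 18735001 to 18740000 40.01-fold (990 reads), chromosome 3 from 76040001 to 76045000 39.4-fold (974 reads) and chromosome 14 from 115805001 to 115810000 38.8-fold (960 reads). In these 5 bins H3K27me3 lay between 1.42-fold and 2.53-fold, and H3K9me3 between 2.11-fold and 3.35-fold in secondary MEF and between 1.11-fold and 1.83-fold in MEF. Their windows held 2 to 4 called bins of any library, against a median of 1 over all deserts.

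Around strong desert H3K4me3 peaks the other libraries rose most in the same bin and less in the adjoining bins. At 288 regions with a highest bin of 5-fold or more, the mean of that bin was 14.9-fold H3K4me3, 2.20-fold H3K27me3, 1.70-fold secondary MEF H3K9me3 and 1.46-fold MEF H3K9me3. The adjoining bin at each side had a mean of 1.001-fold H3K4me3 and medians of 0.364-fold and 0.404-fold. Means of the other libraries there were 0.777-fold and 0.860-fold H3K27me3, 0.758-fold and 0.769-fold secondary MEF H3K9me3, and 0.751-fold and 0.793-fold MEF H3K9me3. At 50 kb the means were 0.342-fold and 0.370-fold H3K4me3, 0.475-fold and 0.493-fold H3K27me3, 0.607-fold and 0.596-fold secondary MEF H3K9me3, and 0.594-fold and 0.577-fold MEF H3K9me3. Those means were still above the desert mean of each library, while the median H3K4me3 bin there had 0.202-fold and 0.242-fold. Deserts with a called H3K4me3 bin were higher in all 4 libraries than deserts without one. How far a rise reaches from the peak itself was therefore not tested.

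Called H3K4me3 bins with and without H3K27me3 differed in H3K9me3. Of the 512 bins, 337 had no H3K27me3 call, with medians of 8.57-fold H3K4me3 and 0.961-fold H3K27me3, and their H3K9me3 ratio of secondary MEF over MEF was 1.34 (1.29 to 1.38). The other 175 bins were called for both marks, with medians of 5.62-fold and 4.10-fold, and had a ratio of 0.836 (0.807 to 0.867). H3K9me3 was called more often in these bins in both libraries. Secondary MEF H3K9me3 was called in 34.3% of them, against 13.1% of bins without an H3K27me3 call. For MEF H3K9me3 these shares were 48% and 3.26%. The lower ratio thus went with more MEF H3K9me3 and not with less secondary MEF H3K9me3. The split used MEF H3K27me3, which shares cells and flow cell with the ratio's divisor, so these ratios are a description. In richer windows the ratios of the same groups were 1.34 (1.34 to 1.35) and 1.04 (1.04 to 1.05). In the next poorest windows they were 1.29 (1.26 to 1.32) and 0.813 (0.796 to 0.830). The pooled ratio of bins with both marks in deserts was thus close to that of the next poorest windows. However, the next poorest windows held 8 called H3K4me3 bins at 5-fold or more in all 4 libraries, deserts 0 and richer windows 72. The part of these bins in the pooled ratios was not tested. Median H3K9me3 of bins with both marks was 1.74-fold (secondary MEF) and 2.00-fold (MEF) in deserts. In the next poorest windows it was 1.98-fold and 2.17-fold, so this order is not particular to deserts. At 59 desert bins of 20-fold H3K4me3 or more the ratio was 1.44 (1.35 to 1.54), from 2211 reads in secondary MEF and 1709 in MEF. Such bins had 1.44 (1.43 to 1.44) in richer windows, so this value is not particular to deserts either. In the next poorest windows their pooled ratio was 0.921 (0.893 to 0.949). Their medians there went the other way, at 1.98-fold H3K9me3 in secondary MEF and 1.55-fold in MEF, so nothing is read from that pooled ratio.

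Called H3K27me3 bins of deserts, again a description, had a median of 3.14-fold, and 84 reached 5-fold and 9 reached 10-fold. Of the 336 bins, 52.1% were H3K4me3 bins, which made up 34.2% of the H3K4me3 bins. In richer windows these shares were 20.04% and 37.8%. The highest was on chromosome 14 from 83250001 to 83255000, with 358 reads of H3K27me3 (18.1-fold, 16.3 to 20.1), 338 of H3K4me3 (13.7-fold), and H3K9me3 at 51 reads in secondary MEF (3.16-fold) and 100 in MEF (5.55-fold). Chromosome 3 from 45475001 to 45480000 had 14.97-fold H3K27me3 and 12.3-fold H3K4me3, with H3K9me3 at 2.91-fold (secondary MEF) and 5.94-fold (MEF). On chromosome 12 from 14175001 to 14180000 H3K27me3 was 13.4-fold and H3K4me3 15.1-fold, with 4.83-fold and 3.28-fold. The remaining bins of the 5 highest, chromosome 7 from 47000001 to 47005000 and chromosome 3 from 26520001 to 26525000, reached 11.9-fold and 11.2-fold, with H3K4me3 at 5.62-fold and 7.396-fold. All 5 were thus called for both marks. The longest H3K27me3 region lay on chromosome 12 between 50250001 and 50280000, spanning 30 kb with a mean fold of 6.09 and 2.55-fold H3K4me3.

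Most H3K9me3 peaks of deserts were shallow, as they were in richer windows. The median called bin stood at 2.35-fold (secondary MEF) and 2.50-fold (MEF) in deserts and at 2.54-fold and 2.44-fold in richer windows. In deserts 13 of 345 bins (secondary MEF) and 8 of 206 (MEF) reached 5-fold. These shares were larger than in richer windows, with 725 of 44602 and 613 of 49749. The next poorest windows had 17 of 768 and 18 of 470. The 100 bins called in both were 29.0% of the secondary MEF bins and 48.5% of the MEF bins, against 55.6% and 49.9% in richer windows. Of the MEF bins 62.1% were also H3K27me3 bins and 14.1% were called in no other library, near the 64.8% and 16.1% of richer windows. Of the secondary MEF bins 22.0% were H3K27me3 bins and 54.2% were called in no other library, against 44.0% and 24.2% in richer windows. The share called in no other library was 56.8% in the next poorest windows, and the bins of the 3 fullest deserts are in these counts. Calls depended on the limit and the width of the bins: at 3-fold with a stricter adjusted value, 63 bins were left in secondary MEF and 56 in MEF, and in bins of 10 kb 100 and 76.

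The highest H3K9me3 bin in both libraries was on chromosome 14 from 13140001 to 13145000, with 210 reads in secondary MEF (13.0-fold, 11.3 to 14.9) and 139 in MEF (7.72-fold, 6.49 to 9.11). H3K4me3 was 8.33-fold and H3K27me3 2.18-fold there. In secondary MEF the longest H3K9me3 region spanned 40 kb of chromosome 3 between 25710001 and 25750000 at 4.34-fold, and its first 35 kb were called in MEF at 3.55-fold. H3K4me3 had no called bin over it and H3K27me3 had 2. On chromosome 3 from 3000001 to 3020000, the first bins with sequence on that chromosome, H3K9me3 averaged 6.79-fold (secondary MEF) and 5.30-fold (MEF), beside 1.23-fold H3K4me3 and 1.19-fold H3K27me3. Neither stretch held a called bin of MEF H3K4me3. On chromosome 5 from 109795001 to 109800000, H3K9me3 of 8.55-fold (secondary MEF) and 5.05-fold (MEF) lay under a strong H3K4me3 peak of 24.0-fold.

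Bin by bin, few differences between secondary MEF and MEF H3K9me3 were seen in deserts, where reads are sparse. A total of 30595 desert bins had 20 reads or more over both libraries, and 149 of them (0.487%) were at least 2-fold higher in secondary MEF with a 0.1% error interval excluding 1, and 31 (0.101%) were at least 2-fold lower. Over all 321545 compared bins the shares were 0.757% higher and 0.575% lower. On chromosome 12 lay 66 bins of the first kind and none of the second, and without it 83 (0.296%) were higher and 31 lower. The 149 higher bins had medians of 1.55-fold (secondary MEF) and 0.333-fold (MEF), with H3K27me3 at 0.405-fold. The 31 lower bins had 0.496-fold (secondary MEF) and 1.89-fold (MEF), and 13 of them were H3K27me3 bins. Desert bins averaged 7.94 reads in secondary MEF and 7.45 in MEF, so a bin low in 1 library reached 20 reads only by being high in the other. The counts and H3K9me3 medians of differing bins depend on this selection and are a description. Only 26.5% of desert bins had enough reads to be compared, against 86.7% of bins in richer windows.

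Some of the largest differences rested on stacked reads. On chromosome 1 from 112175001 to 112180000 the secondary MEF library had 136 reads at 11 distinct positions and the MEF library 4 reads (ratio 37.9, 14.5 to 141). On chromosome 8 from 62825001 to 62830000 there were 125 reads at 17 distinct positions, and 4 reads in MEF. On chromosome 3 from 16665001 to 16670000 the 28 secondary MEF reads lay at 6 distinct positions, with no read in MEF. Of the 149 higher bins, 14 (9.40%) had fewer distinct positions than 1 for every 2 secondary MEF reads, and the 31 lower bins had none of that kind in MEF. Higher bins with spread reads also occurred, as on chromosome 12 from 67950001 to 67955000, where 20 secondary MEF reads at 20 positions stood beside 1 read in MEF.

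Deserts occurred on every autosome and lay next to each other. Their share of windows ran from 13.4% on chromosome 11 and 13.8% on chromosome 19 to 32.7% on chromosome 3 and 33.7% on chromosome 16. Chromosome 1 held the most, with 56 of 191 windows. With each chromosome cut into 3 equal parts from the low-coordinate end, deserts made up 29.0%, 28.5% and 18.7% of windows. Of windows in the first 5 Mb with data they made up 23.4%, and of those in the last 5 Mb 17.2%.

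The 592 deserts formed 232 runs of adjacent windows, of which 95 were a single window and 82 were 3 windows or longer. Those 82 runs held 387 deserts (65.4%). The longest covered 12 Mb of chromosome 15, from 13000001 to 25000000, with 0.134-fold H3K4me3, 0.261-fold H3K27me3, and H3K9me3 of 0.440-fold (secondary MEF) and 0.353-fold (MEF). Over its 2353 bins only 8 were called in any library. Runs of 11 Mb lay on chromosome 1 from 109000001 to 120000000 (4 called bins) and on chromosome 14 from 86000001 to 97000000 (6) and from 105000001 to 116000000 (13), and a run of 10 Mb lay on chromosome 5 from 79000001 to 89000000 (9). In these 5 runs the ratio of secondary MEF over MEF H3K9me3 lay between 1.19 and 1.26. In 38 runs no bin was called in any library.

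Long runs were poorer than isolated deserts in all 4 libraries. Deserts in runs of 5 windows or more had 0.468-fold H3K9me3 in secondary MEF and 0.383-fold in MEF, against 0.558-fold and 0.499-fold in single deserts. H3K4me3 was 0.181-fold against 0.256-fold and H3K27me3 0.282-fold against 0.361-fold. Their ratio of secondary MEF over MEF H3K9me3 was 1.22 (1.22 to 1.23), against 1.12 (1.11 to 1.12) in single deserts. Runs join windows that passed the rule, so the H3K4me3 and H3K27me3 levels are a description. Across deserts both H3K9me3 and the ratio moved with H3K27me3, and the part of run length apart from it was not tested. The 3 windows with the most H3K9me3 in secondary MEF were all single deserts.

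Borders of runs were gradual. Across the 164 borders of runs of 3 windows or more, the first 100 kb inside had 0.611-fold H3K9me3 in secondary MEF, 0.530-fold in MEF, 0.426-fold H3K27me3 and 0.294-fold H3K4me3. The first 100 kb outside had 0.661-fold, 0.599-fold, 0.518-fold and 0.521-fold. From 500 to 600 kb inside, the levels were 0.481-fold, 0.397-fold, 0.292-fold and 0.194-fold, and they changed little deeper in. Between 900 and 1000 kb outside they were 1.02-fold, 1.05-fold, 0.974-fold and 1.12-fold. The rule fixes some contrast for H3K4me3 and H3K27me3 at a window's edge, and the edges stand at full megabases, which blurs them. H3K9me3, which the rule did not use, changed over the same distance as the other marks.

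**Figure D5:**
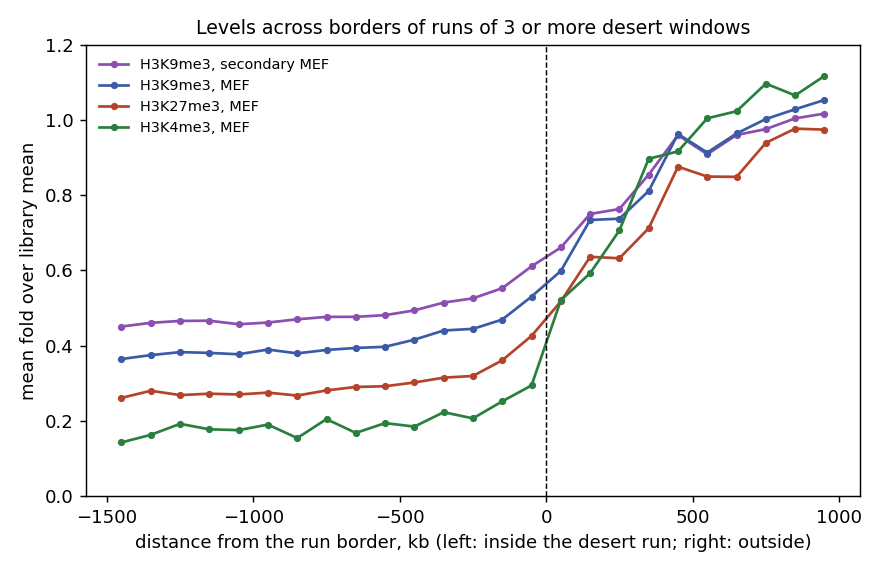
Mean fold over the library mean (y) in 100 kb steps across the 164 borders of runs of 3 or more desert windows, with distances inside the run to the left of the dashed line and outside to its right (x, kb). All 4 libraries are lower inside than outside, with a gradual change around the border, where H3K4me3 has 0.294-fold in the first 100 kb inside and 0.521-fold in the first 100 kb outside.

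Deserts with and without an H3K4me3 peak differed in the other libraries too. The 253 deserts with a called H3K4me3 bin had 0.511-fold H3K9me3 in secondary MEF, 0.460-fold in MEF and 0.360-fold H3K27me3. The 339 without one had 0.478-fold, 0.379-fold and 0.257-fold. Their ratios of secondary MEF over MEF H3K9me3 were 1.11 (1.11 to 1.12) with a peak and 1.26 (1.25 to 1.26) without, or 1.09 and 1.23 without chromosome 12. H3K4me3 calls follow the rule's own values, so these are descriptions.

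The longest stretches without a called bin of any library were mostly desert. Part of this follows from the rule, since a stretch without H3K4me3 and H3K27me3 calls is low in the marks that chose the deserts. The longest of all autosomes, 6665 kb of chromosome 1 from 99930001 to 106595000, had 98.9% of its 1304 bins in deserts, with H3K9me3 at 0.443-fold (secondary MEF) and 0.361-fold (MEF) and H3K4me3 at 0.115-fold. It was followed by chromosome 15 from 13125001 to 18760000 (5635 kb, inside the longest run), chromosome 14 from 87320001 to 92770000 (5450 kb) and chromosome 2 from 85055001 to 90275000 (5220 kb). The last of these was the poorest of the 4, at 0.0858-fold H3K4me3, 0.151-fold H3K27me3, and 0.396-fold and 0.276-fold H3K9me3 in secondary MEF and MEF. Of 307 stretches of 1 Mb or more, 243 had most of their bins in deserts. Over its 4365 kb, chromosome 7 from 19130001 to 23495000 held only 148 bins with a read, and 0% of them were in deserts. These stretches were named after their values were seen.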

How the data were processed

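The deposited values are other than a level: signed positions of single aligned reads, a minus sign marking the minus strand, not normalised. The authors used Bowtie (version not given in the sources used here) against mm8, with -e 70 -k 2 -m 2 -n 2 -l 36, and --best with --concise, per the file headers, and reads with 1 and with 2 locations are listed apart. Per the labels, chromatin of 500 bp on average was amplified over 18 PCR cycles and size-selected at 150 to 350 bp.

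Reads with 1 location were shifted by 75 bp from the 5′ end (read length of 36 assumed) and counted in 5 kb bins. Window means were taken over bins with a read in any library. Distinct positions made up 91.4% to 98% of reads. A fold has an exact Poisson interval, and a ratio of read shares, scaled by total reads, a Clopper-Pearson interval. The PCR reads carry no molecular identifiers, so these cover counting error only. Mitochondrial reads were left out. Alternatives changed the limit, bin minimum, bin width, scaling, repeated reads and reads with 2 locations. Positions are named by a rule: the 5 longest runs, the 3 poorest windows, 5 windows at each end of both H3K9me3 levels and their ratio, the 5 highest called bins per library, the 3 fullest windows and 3 windows on each side of the limit. Regions named for their length, uncalled stretches and single differing bins lie outside it and were chosen after their values were seen. The members, classes and tests were chosen with earlier results of these data known. Calls and window ratios were tested on simulated data. Analyses used Python 3.11.15, NumPy 2.4.6, SciPy 1.17.1 and pandas 2.3.3.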

Additional observations from a re-analysis of the deposited data

How the results depend on the processing

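No paired analysis was possible because each group held 1 library. Deserts numbered 282 with levels over the median bin in place of the mean, all among the 592, and between 460 and 709 under the other rules tried. The cause of each shift was not tested. H3K9me3 in deserts, for the 592 windows unless the limit changed, stayed under 1-fold in both libraries under every setting here. It was 0.494, 0.61, 0.479, 0.462, 0.516, 0.503 and 0.481 in secondary MEF with 1 read per position, over the median bin, without chromosome 12, at limits of 0.4 and 0.6, with reads of 2 locations at a weight of 0.5, and without called bins (added after seeing the data). In MEF it was 0.416, 0.497, 0.375, 0.45, 0.423 and 0.404, in the same order but for the setting without chromosome 12, which gave 0.413. The ratio of secondary MEF over MEF was 1.16 scaled by bins called for neither H3K4me3 nor H3K27me3, 1.17 with every chromosome scaled by its own total, 1.16 without chromosome 12, and 1.23 and 1.15 at limits of 0.4 and 0.6. Counts of called bins depended on width and background. At a stricter limit on fold and adjusted value they were 177 for H3K27me3, and 63 (secondary MEF) and 56 (MEF) for H3K9me3. In 1 kb bins they were 1201 for H3K4me3, 626 for H3K27me3 and 365 for MEF H3K9me3, and in 10 kb bins 180 for H3K27me3 and 100 (secondary MEF) and 76 (MEF) for H3K9me3. Against the mean of desert bins they were 2133 for H3K4me3, 2577 for H3K27me3, and 2122 (secondary MEF) and 2164 (MEF) for H3K9me3. Held also to 2-fold above the other MEF marks, 142 H3K27me3 bins and 209 (secondary MEF) and 53 (MEF) bins of H3K9me3 were left. Higher bins of secondary MEF fell to 49 and lower ones to 17 at 40 reads or more, and higher ones to 94 with every chromosome scaled by its own total. Under that scaling, added after seeing the data, 7 deserts were lower in secondary MEF. Depth limits the comparison of single bins, since most desert bins held under 20 reads in both H3K9me3 libraries together.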
